A study of Mus musculus with 8 samples.

Results

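The complement components and receptors examined here were 9 genes, chosen by name: C1qa, C1qb and C1qc, which encode the chains of C1q, the fragment receptors C3ar1 and C5ar1, properdin (Cfp), and the component genes C3, C4b and Cfb. They were 9 of the 18040 genes listed in either of the 2 deposited tables, and all 9 were in both tables and passed the filter on low counts in both diets. RNA-seq was examined in 8 libraries of macrophages sorted from the epididymal white adipose tissue (eWAT) of WT mice, 2 libraries for each of 4 groups. Adhesion-related macrophages (ARMs) came from the floating adipocyte layer, which was vortexed with beads to free the cells attached to adipocytes. Macrophages of the stromal vascular fraction (SMs, titled NARM in the labels) came from the pellet of the same kind of digest. The study's methods give male C57BL/6J mice, 6 weeks old when the diets began, kept on a normal diet (ND) or on a high-fat diet (HFD) with 60% fat for 8 weeks. No allele or agent other than the diet set the groups apart. Each library pooled the cells of 6 HFD mice or 10 ND mice, so the spread between 2 libraries is that between 2 pools, not between single mice.

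Complement is a set of plasma and cell-surface proteins that mark and clear microbes, dying cells and debris. C1q starts the classical pathway by binding antibody or altered surfaces, which leads to cleavage of C4 and C2 and then of C3, while factor B, factor D and properdin drive the alternative pathway that amplifies C3 cleavage. The fragments C3a and C5a signal through C3AR1 and C5AR1 on leukocytes, and tissue macrophages are a known source of C1q, whereas C3 is made by liver, adipocytes, fibroblasts and activated myeloid cells.

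The 3 C1q genes lie side by side on chromosome 4, at chr4:136880126-136886200 (C1qb), chr4:136889801-136892936 (C1qc) and chr4:136895916-136898844 (C1qa). A further 3 members are on chromosome 17, C4b at chr17:34728139-34743902 and Cfb at chr17:34856374-34862514, both in the class III region of the major histocompatibility complex, and C3 at chr17:57203967-57228136. C3ar1 is at chr6:122847140-122856157, C5ar1 at chr7:16246743-16259540 and Cfp at chrX:20925454-20931555, all in RefSeq's GRCm38.p6 annotation, the mouse build that the labels call mm10. The RefSeq promoter table matched 6 of the 9 genes, and C1qa, C4b and Cfb were not matched. The promoters of C3, the member with the largest difference between ARMs and SMs, and of C1qb and C1qc, from the locus with the highest levels, are printed from 250 bases before to 50 bases after the annotated start, 5′ to 3′ on the gene's own strand, which is the minus strand for all 3. They span chr17:57228087-57228386, chr4:136886151-136886450 and chr4:136892865-136893164. Capitals mark the motifs searched.
C3: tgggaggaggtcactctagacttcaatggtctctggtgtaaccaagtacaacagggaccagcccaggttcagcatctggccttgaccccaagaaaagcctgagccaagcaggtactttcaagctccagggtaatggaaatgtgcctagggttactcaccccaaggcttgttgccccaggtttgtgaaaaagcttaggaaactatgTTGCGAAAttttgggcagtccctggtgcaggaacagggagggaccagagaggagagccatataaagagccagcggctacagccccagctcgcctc
C1qb: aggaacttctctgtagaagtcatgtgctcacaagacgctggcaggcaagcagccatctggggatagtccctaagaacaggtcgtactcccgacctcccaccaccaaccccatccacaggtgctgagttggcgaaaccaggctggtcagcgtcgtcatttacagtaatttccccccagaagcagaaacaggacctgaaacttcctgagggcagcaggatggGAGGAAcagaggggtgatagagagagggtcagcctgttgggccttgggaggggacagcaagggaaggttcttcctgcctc
C1qc: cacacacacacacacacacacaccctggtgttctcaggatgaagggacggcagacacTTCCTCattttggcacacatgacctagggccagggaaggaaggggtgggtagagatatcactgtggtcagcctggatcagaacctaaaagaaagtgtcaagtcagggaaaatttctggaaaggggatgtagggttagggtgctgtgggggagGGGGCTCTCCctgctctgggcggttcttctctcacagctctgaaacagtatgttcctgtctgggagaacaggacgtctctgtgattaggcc
Both strands were searched for the PU.1 core GAGGAA, the C/EBP motif TTGCNNAA and the NF-kB consensus. PU.1 and C/EBP factors are regulators of myeloid genes, and NF-kB of inflammatory genes. The PU.1 core was in 3 of the 6 promoters, those of C1qb, C1qc (on the opposite strand, as TTCCTC) and Cfp, and in 28.3% of all 32851 promoters of this length. The C/EBP motif was in that of C3 alone among the 6 and in 10.8% of all promoters. The NF-kB consensus, the second run of capitals in C1qc, was in 1 of the 6 and in 8.46% of all. The motifs did not overlap in these windows, and a match of letters is a description, not a bound site.

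Depth was 18288775 to 19040133 estimated counts per library on HFD and 14508824 to 16319038 on ND, so counting error was small for every member and the 2 pools per group set the precision. Both cell types carried the macrophage markers, which summed to 18450 to 19957 TPM per library on HFD and 22255 to 23662 on ND. All 10 on the list were tested in each diet and 0 were called. Of all genes tested, 4.46% were called higher and 0.292% lower on HFD, and 3.55% and 0.129% on ND. The sort used antibodies to CD45, CD11b and F4/80, so Ptprc (CD45) and Adgre1 (F4/80) on that list are no independent check of it. The same holds for Itgam (CD11b) among the complement receptors. Lyve1, a marker of some resident macrophages, was lower in HFD ARMs by 0.58 on the log2 scale (adjusted p = 0.0013 by edgeR's quasi-likelihood test, Benjamini-Hochberg adjusted), just under the fold threshold. A call asked for a change of more than 1.5-fold and an adjusted p under 0.05, and TPM, which divides counts by gene length, was used for every level. In bulk RNA, fewer cells of a type and less RNA per cell cannot be told apart.

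In mice on HFD, none of the 9 members was called between ARMs and SMs, and in mice on ND 1 was, C3, which was higher in ARMs. Among all 13337 genes tested on HFD, 4.46% were called higher in ARMs and 0.292% lower. Among all 12441 genes tested on ND, 3.55% were called higher and 0.129% lower, so 1 of 9 members rests on a single gene. DESeq2 also called 0 members on HFD. By edgeR's quasi-likelihood test, 7 of the 9 had an unadjusted p under 0.05 on HFD, against 23.2% of all genes tested. On ND 3 of the 9 did, against 14.9% of all genes tested. With no fold threshold, 3 members passed the adjusted p on HFD. C3 was higher in ARMs, as were 6.53% of all genes, and C4b and Cfb were lower, as were 3.02% of all genes. On ND, C3 alone passed, with 4.28% of all genes higher and 0.458% lower by that rule.

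**Figure D1:**
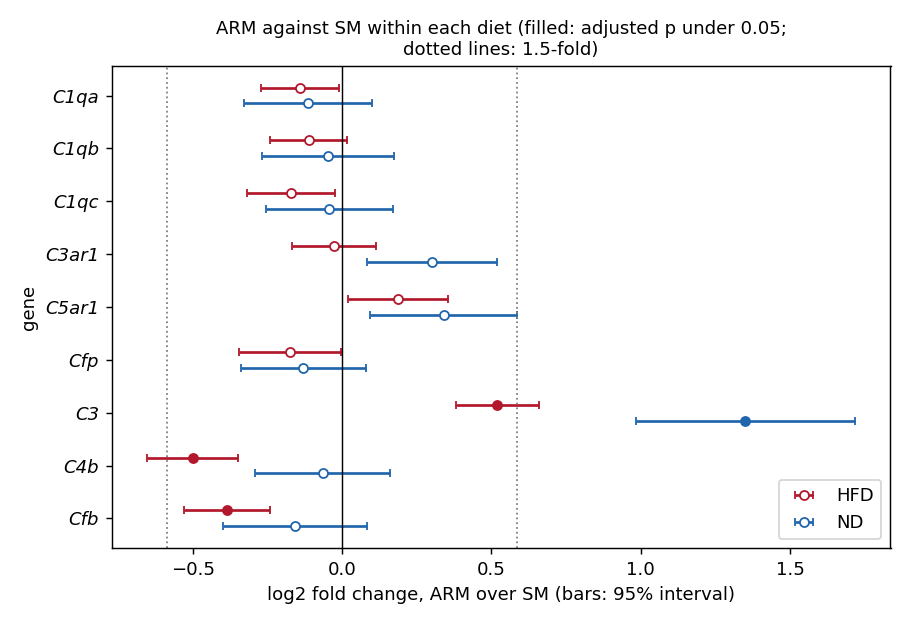
Log2 fold change of ARM over SM (horizontal axis) for the 9 members (vertical axis), with 95% intervals, in HFD (red) and ND (blue), 2 libraries per group. C3 lies to the right of 0 in both diets, C4b and Cfb lie to the left with filled points on HFD only, and only C3 on ND lies wholly beyond the 1.5-fold line.

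The median log2 fold change of the 9 members was -0.14 on HFD and -0.05 on ND, beside -0.0064 and -0.016 over all genes tested. On HFD the ARM and SM libraries of 8 of the 9 did not overlap, 2 with ARMs above and 6 with ARMs below, where 52.7% of all genes tested did not overlap. On ND 5 did not overlap, 3 above and 2 below, beside 44.0% of all genes.

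C1q was by far the most abundant of these products. C1qa stood at 5953 and 5698 TPM in the HFD ARM libraries and at 6392 and 6378 in the HFD SM libraries. On ND it stood at 5784 and 6020 TPM in ARMs and at 6329 and 6145 in SMs. The SM libraries were thus above the ARM libraries in each diet without overlap, by little. C1qa ranked 10 to 13 among all genes by TPM in the 8 libraries. The log2 fold change of ARM over SM was -0.14 on HFD (SE 0.06, 95% interval -0.27 to -0.01, adjusted p = 0.179 by edgeR's quasi-likelihood test, Benjamini-Hochberg adjusted) and -0.11 on ND (SE 0.10, -0.33 to 0.10, adjusted p = 0.701), so neither passed and a difference of 1.5-fold lay outside both intervals.

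The other two chains gave the same picture of levels. C1qb stood at 5407 and 5202 TPM in HFD ARMs, 5698 and 5692 in HFD SMs, 5547 and 5580 in ND ARMs, and 5866 and 5359 in ND SMs. C1qc stood at 5465 and 4942 TPM in HFD ARMs, 5855 and 5789 in HFD SMs, 4930 and 5003 in ND ARMs, and 5104 and 4895 in ND SMs. For both genes the ARM libraries were below the SM libraries on HFD and overlapped with them on ND. The log2 fold changes were -0.11 (95% interval -0.24 to 0.02) for C1qb and -0.17 (-0.32 to -0.02) for C1qc on HFD, with adjusted p = 0.291 and 0.150 by edgeR's quasi-likelihood test. On ND they were -0.05 (-0.27 to 0.17) and -0.04 (-0.26 to 0.17), with adjusted p = 0.901 and 0.905.

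C1q is assembled from equal numbers of its A, B and C chains. The ratio of C1qa to C1qb in TPM lay between 1.04 and 1.15 across the 8 libraries, and that of C1qa to C1qc between 1.09 and 1.26. The 3 chains together took 15841 TPM in the lowest library, replicate 2 of HFD ARM, and 17945 in the highest, replicate 1 of HFD SM, or 1.58% to 1.79% of all TPM. All 9 members took 1.87% to 2.12%. Across the 8 libraries, with each diet's mean subtracted from log2 CPM, the pairs of C1q genes had Pearson's r of 0.861 to 0.895. The 5 genes most like the mean of the C1q genes by this measure, among 7992 compared, were Pttg1ip (r = 0.992), Ninj1 (0.978), Tcn2 (0.976), Ankrd13c (0.976) and Rcn3 (0.971). These correlations share their 8 libraries and are a description.

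**Figure D2:**
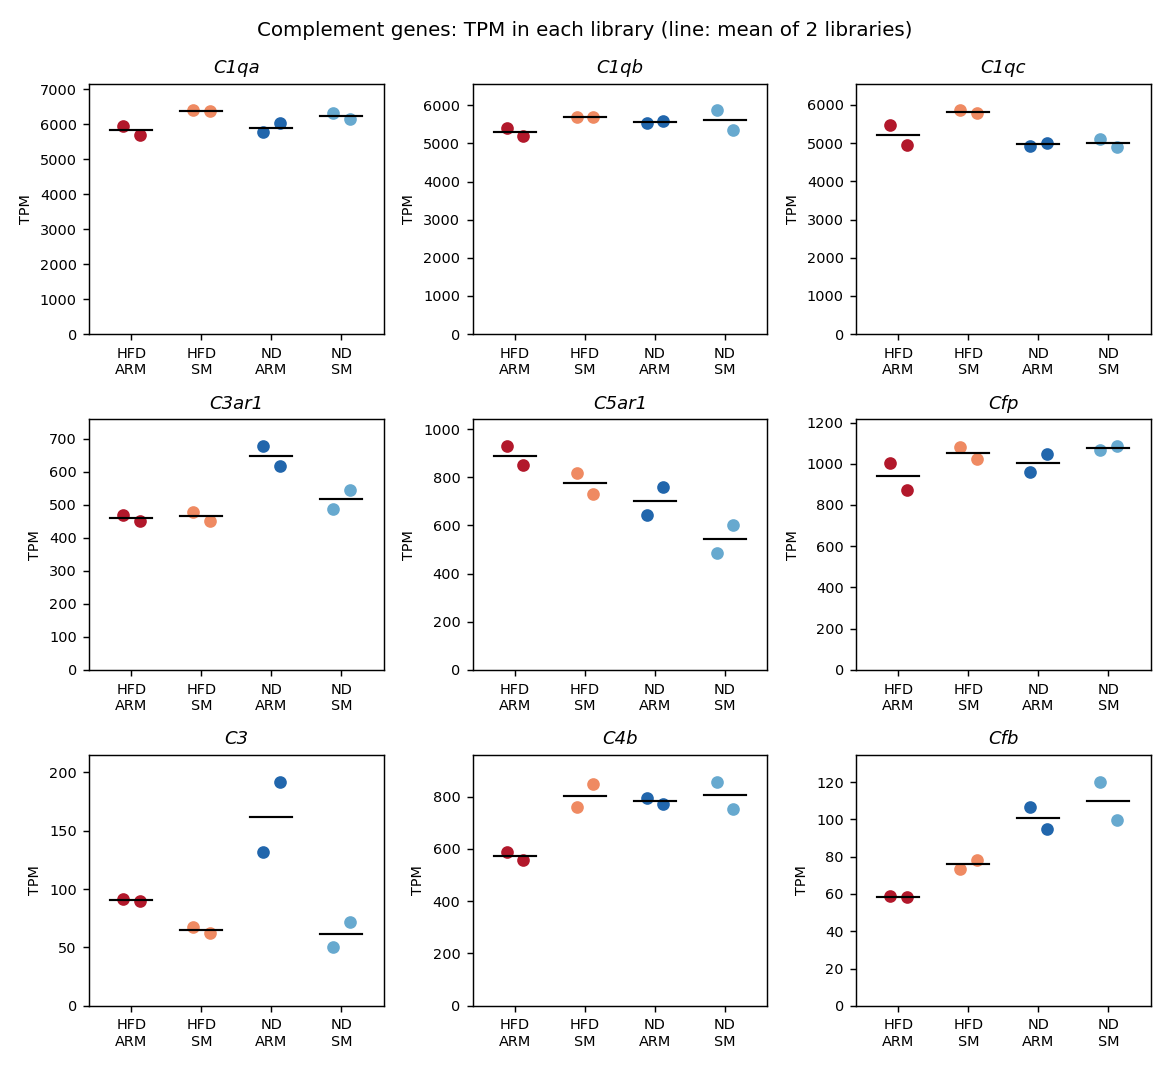
TPM (vertical axis, from 0, with its own scale for each gene) of the 9 members in each library, for HFD ARM, HFD SM, ND ARM and ND SM (horizontal axis); points are libraries and lines the mean of 2. The C1q genes are between 4895 and 6392 TPM in every library, C3 is highest in ND ARM, and C4b is lowest in HFD ARM.

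C5ar1 and C3ar1, the receptors for C5a and C3a, were higher in ARMs than in SMs in the values for ND, and neither difference passed. C5ar1 stood at 643 and 760 TPM in ND ARMs and at 485 and 602 in ND SMs, and at 929 and 850 in HFD ARMs and 818 and 731 in HFD SMs. The ARM libraries were above the SM libraries in each diet. The log2 fold change was 0.34 on ND (SE 0.12, 95% interval 0.09 to 0.59, adjusted p = 0.130 by edgeR's quasi-likelihood test, Benjamini-Hochberg adjusted) and 0.19 on HFD (SE 0.08, 0.02 to 0.36, adjusted p = 0.166). C3ar1 stood at 677 and 619 TPM in ND ARMs and 486 and 546 in ND SMs, but at 469 and 450 in HFD ARMs and 478 and 452 in HFD SMs. The groups were apart on ND and overlapped on HFD. The log2 fold change of C3ar1 was 0.30 on ND (SE 0.10, 0.08 to 0.52, adjusted p = 0.126) and -0.03 on HFD (SE 0.06, -0.17 to 0.11, adjusted p = 0.857), and the sign of the HFD value turned with library totals in place of TMM. Leaving out SM replicate 2 on ND, or SM replicate 1 on HFD, brought C5ar1 past the adjusted p, at 0.0444 and 0.0313 by the same test.

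Cfp encodes properdin, which stabilises the alternative-pathway convertase and is made by leukocytes. It stood at 1005 and 873 TPM in HFD ARMs, 1081 and 1024 in HFD SMs, 959 and 1049 in ND ARMs, and 1067 and 1085 in ND SMs. ARM libraries were below SM libraries in each diet. The log2 fold changes were -0.17 on HFD (95% interval -0.34 to -0.0035) and -0.13 on ND (-0.34 to 0.08), with adjusted p = 0.207 and 0.627 by edgeR's quasi-likelihood test.

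C3, the component on which all 3 activation pathways converge, was the member that rose in ARMs on ND. It stood at 132 and 192 TPM in the ND ARM libraries and at 50.1 and 72.2 in the ND SM libraries, means of 162 ± 42.5 and 61.2 ± 15.7 (SD, n = 2). On HFD it stood at 91.3 and 89.8 TPM in ARMs and at 67.9 and 62.3 in SMs. ARMs were above SMs without overlap in each diet, and the 2 ND ARM libraries were the highest of the 8. The difference on ND was 2.55-fold, a log2 fold change of 1.35 (SE 0.17, 95% interval 0.98 to 1.72, adjusted p = 0.00029 by edgeR's quasi-likelihood test, Benjamini-Hochberg adjusted). On HFD it was 1.43-fold, a log2 fold change of 0.52 (SE 0.06, 0.38 to 0.66, adjusted p = 0.00066), past the adjusted p but under the fold threshold. Without ND ARM replicate 2, the highest library, the ND value was 1.05 (adjusted p = 0.0142), and C3 stayed called with each library left out in turn (1.05 to 1.65). In one fit of all libraries the HFD value was 0.51, with adjusted p = 0.0964.

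On ND, fibroblast and mesothelial markers were higher in ARMs together with C3. In ND ARMs the fibroblast and progenitor markers summed to 889 and 1344 TPM, against 384 and 498 in ND SMs, and 9 of 10 were called higher. The mesothelial markers summed to 43.9 and 56.5 TPM against 12.3 and 16.2, with 8 of 10 called higher. On HFD the fibroblast sums were 763 and 890 TPM in ARMs and 567 and 555 in SMs, with 5 of 10 called higher, and the mesothelial sums were 41.4 and 30.0 against 37.0 and 19.3, with 0 of 10 called. ND ARM replicate 2 was the highest of the 8 libraries for C3 and for both of those sums. The adipocyte and endothelial lists were also higher in ARMs in both diets. Their median log2 fold changes were 2.32 and 1.46 on HFD, and 1.15 and 0.77 on ND. The adipocyte markers were called higher for 9 of 12 on HFD (3294 and 3464 TPM in ARMs, 2524 and 2228 in SMs) and for 7 of 12 on ND (2768 and 3362, 2276 and 2731), a list that holds Cd36, Lpl and Fabp4, which macrophages express too. The endothelial markers were called higher for 9 of 10 on HFD (117 and 110 TPM against 48.1 and 33.7) and for 1 of 10 on ND (28.7 and 63.0 against 23.1 and 26.9). Among 10 neutrophil markers, of which 5 were tested on HFD and 6 on ND, 0 were called on HFD and 1 was lower on ND. Of 6 monocyte markers, Chil3 alone was called higher on HFD, where 5 were above 0 (median log2 fold change 0.37). Vcan alone was called higher on ND, where it was the 1 marker above 0 (median -0.27). No defining marker on these lists was listed at 0 in all 4 libraries of a diet, and the part of these cells in the C3 difference was not tested.

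The 5 genes whose pattern was most like that of C3, by the same measure among 7994 genes, were Plpp3 (r = 0.994), Abca8a (0.994), Ticam1 (0.994), Col5a1 (0.991), which encodes a collagen chain, and Elf4 (0.991). Among the members, r with C3 was 0.925 for C5ar1 and 0.756 for C3ar1, against -0.493 for C4b, -0.510 for Cfp and -0.712 for Cfb. All of these are over the same 8 libraries, in which ARMs and SMs form separate groups, and they describe those libraries only.

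**Figure D3:**
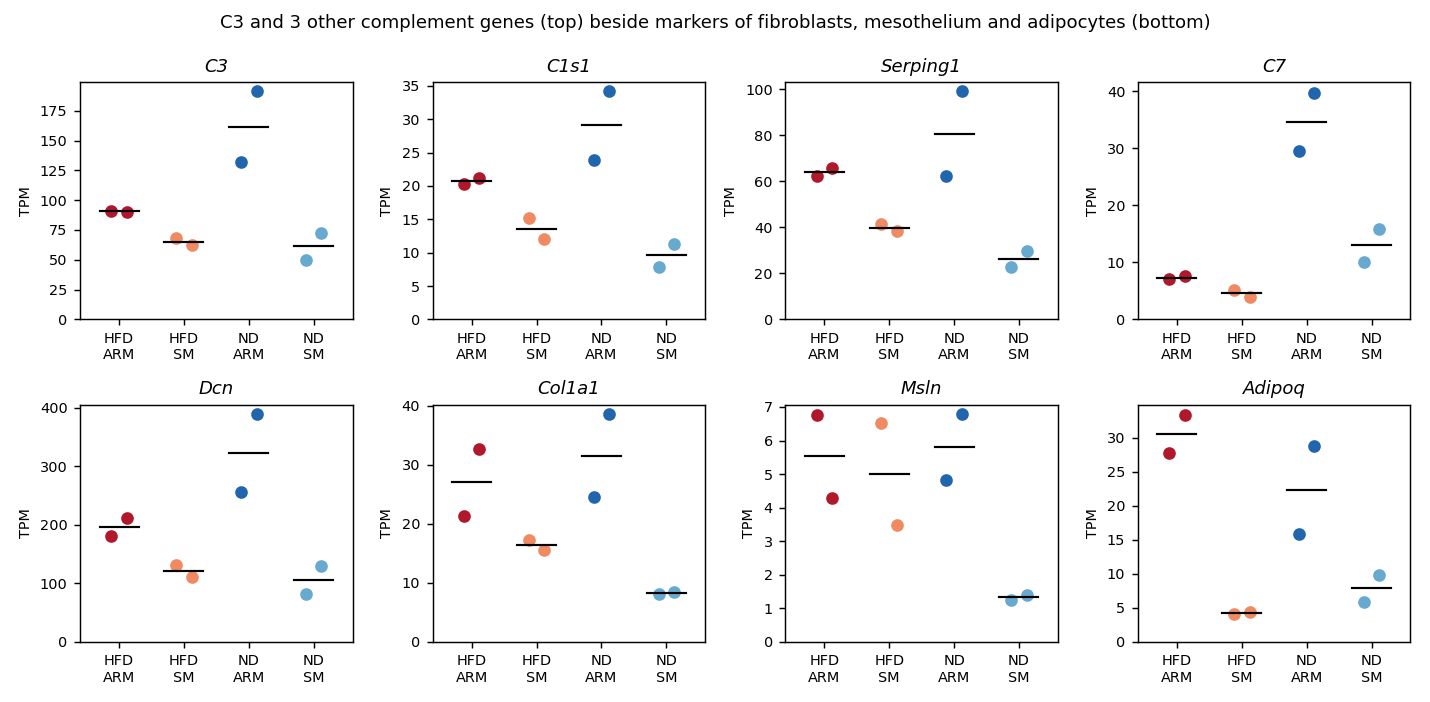
TPM (vertical axis, from 0, own scale for each gene) in each library of the 4 groups (horizontal axis), for C3, C1s1, Serping1 and C7 (top row) and for Dcn, Col1a1, Msln and Adipoq, markers of fibroblasts, mesothelium and adipocytes (bottom row); points are libraries and lines the mean of 2. The higher of the 2 ND ARM points is replicate 2 for all 8 genes, and Msln overlaps between ARMs and SMs on HFD.

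C4b and Cfb had lower values in ARMs on HFD. C4b encodes C4, cleaved by the C1 complex, and stood at 587 and 557 TPM in HFD ARMs and at 758 and 850 in HFD SMs, means of 572 ± 21.6 and 804 ± 64.8 (SD, n = 2). On ND it stood at 796 and 772 TPM in ARMs and at 855 and 753 in SMs. The groups were apart on HFD and overlapped on ND, and the 2 HFD ARM libraries were the lowest of the 8. C4b was 1.41-fold higher in SMs on HFD, a log2 fold change of ARM over SM of -0.50 (SE 0.07, 95% interval -0.65 to -0.35, adjusted p = 0.0014 by edgeR's quasi-likelihood test, Benjamini-Hochberg adjusted), and on ND the value was -0.07 (SE 0.11, -0.29 to 0.16, adjusted p = 0.855). C4b has a near-identical neighbour, C4a, between which counting can split reads, and C4b held 99.86% to 99.95% of the counts of the pair in every library.

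Cfb encodes factor B, the protease of the alternative-pathway convertase. It stood at 58.7 and 58.2 TPM in HFD ARMs and at 73.5 and 78.3 in HFD SMs, and at 106 and 94.8 in ND ARMs and 120 and 99.7 in ND SMs. ARMs were below SMs on HFD and overlapped with them on ND. The log2 fold change was -0.39 on HFD (SE 0.06, 95% interval -0.53 to -0.24, adjusted p = 0.0047 by edgeR's quasi-likelihood test) and -0.16 on ND (SE 0.11, -0.40 to 0.08, adjusted p = 0.602). The HFD calls for C4b and Cfb at the adjusted p were lost without HFD ARM replicate 2 (values of -0.45 and -0.37, adjusted p = 0.0652 and 0.114), and that for Cfb also without ARM replicate 1 (-0.40, adjusted p = 0.0781).

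The ratio of C4b to C3 separated the cell types in every library. TPM of C4b over C3 was 6.44 and 6.20 in HFD ARMs against 11.2 and 13.6 in HFD SMs, and 6.04 and 4.03 in ND ARMs against 10.4 and 17.1 in ND SMs. All 4 ARM libraries were thus below all 4 SM libraries. TPM of C3ar1 over C3 ran from 3.23 in ND ARM replicate 2 to 9.72 in ND SM replicate 1. These ratios were formed with the values of both genes known and are a description, with no test.

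Whether the ARM against SM change differed between diets was tested as an interaction in one fit of all 8 libraries. No member passed, where 0.165% of the 13358 genes tested did. C3 had the largest difference, a log2 change smaller on HFD by 0.84 (interaction -0.84, SE 0.23, 95% interval -1.35 to -0.34, unadjusted p = 0.0030, adjusted p = 0.230 by edgeR's quasi-likelihood test). C4b followed at -0.45 (SE 0.13, -0.72 to -0.18, unadjusted p = 0.0034, adjusted p = 0.240) and C3ar1 at -0.34 (SE 0.12, -0.60 to -0.09, unadjusted p = 0.0118, adjusted p = 0.405). These 3 had an unadjusted p under 0.05, and the other members lay between -0.25 (Cfb) and -0.05 (C1qa). DESeq2 put C4b past the threshold (-0.44, adjusted p = 0.0191), and leaving out ND ARM replicate 1 put C3 past it (-1.05, adjusted p = 0.0319).

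The levels on the 2 diets are set side by side without a test. The 2 deposited tables differ in implied gene length and in the share of counts that are not whole. Diet, library batch and processing cannot be told apart here. The gene length implied by FPKM was 1.08 to 1.09 times longer in the HFD table for the C1q genes and 0.986 to 1.04 times for the other members. The share of all genes whose libraries do not overlap between diets was not counted, so overlap is given here as a description of single genes. C5ar1 was higher in HFD libraries, by 1.27 times in ARMs and 1.43 times in SMs, without overlap. Cfb was higher in ND libraries, by 1.72 times in ARMs and 1.45 times in SMs. C3, C3ar1 and C4b were higher on ND in ARMs, by 1.79, 1.41 and 1.37 times, while in SMs C3 and C4b overlapped and C3ar1 was 1.11 times higher. Cfp overlapped between diets in both cell types. The order of mean levels was C1qa first and C3 or Cfb last in every group, and C3 lay above Cfb in both ARM groups and below it in both SM groups.

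The wider complement list of 45 genes, members left out, held genes of the pathway by role. On HFD 42 were listed and 27 passed the filter, and 7 were called higher in ARMs and 0 lower, beside the 4.46% and 0.292% of all genes. On ND 36 were listed and 24 passed, and 6 were called higher and 0 lower, beside 3.55% and 0.129% of all genes. The medians of the log2 fold change were 0.05 on HFD and 0.12 on ND. The genes that missed the filter were 15 on HFD and 12 on ND. Cfi and C4bp missed it in both diets, and Mbl2 and C9 missed it on HFD and were not listed on ND. The highest single value among the genes that missed it was 1.21 TPM, for Colec11.

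Among the initiators, C1s1, the serine protease carried by C1q, rose in ARMs on ND (24.0 and 34.2 TPM against 7.80 and 11.4, log2 fold change 1.57) and on HFD (20.3 and 21.3 against 15.2 and 12.1, 0.61). Its partner C1ra had 0.49 on ND and 0.12 on HFD, and C2, cleaved beside C4, had 0.51 and -0.02; on ND both passed the adjusted p (0.0226 and 0.0391 by edgeR's quasi-likelihood test) but not the fold threshold. Cd93, first described as a C1q receptor, had 0.56 on ND and 0.38 on HFD, and passed the adjusted p but not the fold threshold in both diets (adjusted p = 0.0316 and 0.0158 by edgeR's quasi-likelihood test). C1s1 was thus called in both diets, while no C1q chain was called in either. Fcna, which encodes the lectin-pathway recognition molecule ficolin A and was the most abundant initiator on the list, ran the other way on HFD, at 778 and 586 TPM in ARMs and 1115 and 910 in SMs (log2 fold change -0.58, adjusted p = 0.0198 by edgeR's quasi-likelihood test, just under the fold threshold), and had -0.17 on ND.

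Among alternative and terminal components, Cfd, the adipocyte-made protease adipsin that cleaves factor B, had the largest log2 fold change, 2.74 on HFD (35.4 and 34.3 TPM in ARMs against a mean of 5.16 in SMs) and 1.61 on ND (85.3 and 146 against 36.2 and 37.4). C7, of the membrane attack complex, was called higher in ARMs in both diets, at 0.66 on HFD and 1.38 on ND. C6, of the same complex, was lower in HFD ARMs by 0.44 on the log2 scale (adjusted p = 0.0338 by edgeR's quasi-likelihood test, under the fold threshold). The adipocyte marker Adipoq was also higher in ARMs in each diet, at 27.8 and 33.4 TPM against 4.08 and 4.33 on HFD and at 15.9 and 28.9 against 5.92 and 9.79 on ND. Between diets, as values without a test, Cfd was higher on ND in both cell types. Adipoq was higher on ND in SMs and overlapped between diets in ARMs. The part of adipocyte RNA in the Cfd difference was not tested.

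Among regulators, Serping1, the inhibitor of C1r and C1s, rose in both diets, at 0.67 on HFD and 1.59 on ND. Clusterin (Clu) was called on ND, at 1.42, and not on HFD, at 0.46 on HFD. Vitronectin (Vtn) and Cd59a, which restrain the membrane attack complex, had 1.32 and 1.01 on HFD and 1.34 and 0.81 on ND. They were called on HFD, near the threshold (adjusted p = 0.0442 and 0.0441 by edgeR's quasi-likelihood test), and not on ND (adjusted p = 0.126 and 0.347). Levels on HFD were low, at 3.28 and 4.81 TPM in ARMs against 2.21 and 0.99 in SMs for Vtn. For Cd59a they were 3.31 and 3.66 against 2.03 and 1.45. Serping1, C1s1, C7 and Clu had values above 0 in both diets, as did the fibroblast marker Dcn (0.69 on HFD and 1.59 on ND). A value above 0 was common on the wider list, with 15 of 27 genes tested on HFD and 18 of 24 on ND. On HFD 8 of the 10 fibroblast and progenitor markers were above 0, while Pi16 (-0.44) and Mfap5 (-0.16) were below. The mesothelial marker Msln had 0.14 on HFD and 2.09 on ND. The part of those cells in these differences was not tested. Of the receptors, Itgax, which encodes the alpha chain of complement receptor 4 (CD11c), was called higher in ARMs on HFD (36.1 and 45.8 TPM against 16.5 and 22.9, log2 fold change 1.05) and on ND (31.5 and 45.0 against 22.1 and 25.3, 0.67). Vsig4, a macrophage receptor for C3b, had -0.52 on HFD (adjusted p = 0.0066 by the same test) and -0.02 on ND. C5ar2, the second C5a receptor, had -0.02 and 0.06.

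**Figure D4:**
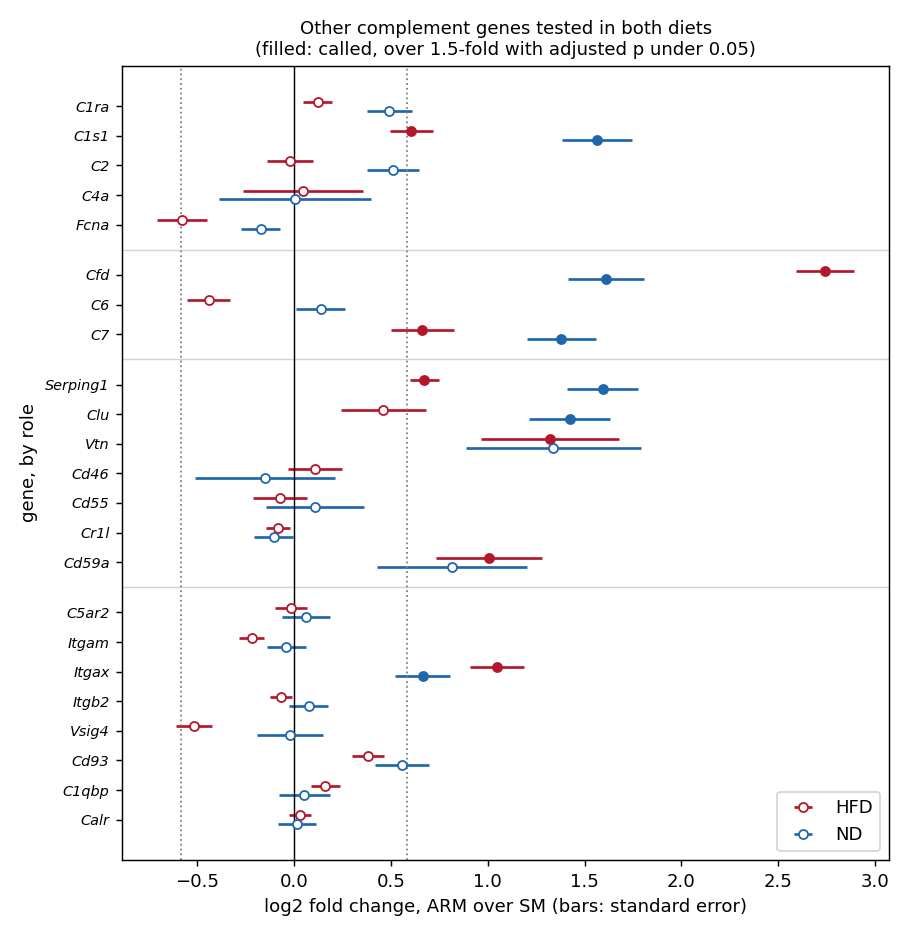
Log2 fold change of ARM over SM (horizontal axis) with its standard error for genes of the wider complement list tested in both diets (vertical axis, grouped as initiators, alternative and terminal components, regulators and receptors), in HFD (red) and ND (blue). Filled points are called, and all of them lie to the right, led by Cfd at 2.74 on HFD.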

How the data were processed

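Bulk RNA-seq of sorted ARMs and SMs was deposited by the authors as 1 table per diet, with an expected count, an FPKM and a TPM for each gene and library. The labels name mm10; the aligner, counting program and annotation are not given in the sources used here. The deposited expected counts were not whole for 32.3% to 32.9% of values on HFD and 8.55% to 9.36% on ND. The tables may thus have been made differently, and levels were not tested between diets. Members and lists were chosen with earlier results of these data known.

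Counts were rounded and fitted for each diet over the whole table with edgeR 4.0.16 in R 4.3.3 (filterByExpr, TMM, quasi-likelihood test, Benjamini-Hochberg over all genes tested), and the interaction of cell type and diet in 1 fit of 8 libraries. The biological coefficient of variation was 5.55% on HFD and 8.61% on ND. Replicates differed beyond sampling noise (mean chi-square per gene 4.23 to 10.2). The steps were tested on simulated data. Alternatives were DESeq2 1.42.0, limma 3.58.1 on log2(FPKM + 1), library totals, no filter, the log2 threshold of 0.6 in the study's methods, 1 fit of all libraries, a replicate block and each library left out. Named genes were all 9 members, genes of the wider complement list called in either diet, and the 5 genes most like C3 and like the C1q mean, among genes with a mean of at least 10 CPM in each diet. Other genes of the wider list and the marker genes were named after their values were seen. Marker lists covered macrophages, adipocytes, fibroblasts and progenitors, mesothelium, endothelium, neutrophils and monocytes. One gene of the wider list is counted but not reported by itself here.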

Additional observations from a re-analysis of the deposited data

How the results depend on the processing

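C3 on ND stayed called under every alternative run (log2 fold change 1.05 to 1.65, adjusted p up to 0.0145), and 0 members were called on HFD under each. HFD members past the adjusted p numbered 3, against 1 with no filter on low counts (C3) and 2 in one fit of all libraries (C4b and Cfb). The HFD number also changed with a library left out. Members past the adjusted p on ND numbered 1, against 2 with no filter (C5ar1 added), 2 in one fit of all libraries (C3ar1 added) and 3 with the replicate block (both added). The ND number also changed with a library left out. The diet difference was called for 0 members, against 1 by DESeq2, 2 with the replicate block (C3, -0.85, and C4b, -0.45) and 0 to 1 with a library left out. The wider list had 7 called on HFD, against 4 by DESeq2, 3 by limma, 2 with no filter, 3 in one fit and 2 to 8 with a library left out, the lowest without HFD ARM replicate 2. On ND it had 6, against 5 to 10, the highest without ND ARM replicate 1. The causes were not tested.

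Values near 0 turned sign: C3ar1 on HFD (0.0017 with library totals, 0.0020 with limma, -0.075 to 0.027 with a library left out), C1qb and C4b on ND (-0.12 to 0.032 and -0.17 to 0.042), and the diet differences of C1qa (0.0039 with library totals, -0.085 to 0.0058), C1qb (-0.13 to 0.011), C5ar1 (-0.30 to 0.00064) and Cfp (-0.17 to 0.048). Same-numbered libraries had correlated deviations of -0.0284 on HFD and 0.221 on ND, from 2 numbers each, so the numbers were not taken as pairs. With 2 pools per group, each value rests on few libraries, and the lone library left in a group is assumed to vary like the others.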

Other observations

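Several genes of the wider complement list differed in level between the diets in both cell types, given as values without a test for the reason given above. Ficolin A (Fcna), a lectin-pathway recognition molecule, averaged 1943 TPM in ND ARMs and 682 in HFD ARMs, and 2142 and 1012 in the SMs. Cd93 ran the other way, at 87.7 TPM in ND ARMs and 162 in HFD ARMs, and 58.6 and 123 in the SMs. C5ar2 was also higher on HFD, by 1.39 times in ARMs and 1.46 times in SMs, near the 1.27 and 1.43 times of C5ar1. In each of Fcna, Cd93 and C5ar2 the libraries of the diets did not overlap in either cell type, in TPM or in CPM. The same held for other genes of the list, such as Calr, Itgam and Vsig4, so it sets none of them apart. The share of all genes without overlap between diets was not counted.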
